A study of Rattus norvegicus with 93 samples.

Results

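The genes described are those of the cytosolic ribosomal proteins, followed through 3 weeks of repair of drilled skull defects in rats. They were taken from the array's annotation by symbol: Rpl, Rps or Rplp, a number, and at most one of the endings a, l, x or al, with the muscle gene Rpl3l left out. The rule used no measured value and gave 73 genes of 15930 named on the array, read by 114 probes. Of the 73, 30 genes had several probes and 1 probe per gene was used for the tests.

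A circular defect of 4 mm or 8 mm was cut in the calvaria, the flat bone of the skull, of male rats aged 12 weeks, and the dura mater below was left in place. The 4 mm defect is the size below the critical size and the 8 mm defect is the critical size, which is one that does not close on its own. No treatment, transgene or mutation was used in either group. Bone with its plug of healing tissue was harvested from single defects at 7 times, and RNA from each was read on its own one-colour array. The 93 arrays form 14 groups: at days 1, 3, 5, 7, 10, 14 and 21 there were 3, 8, 11, 5, 4, 5 and 6 arrays of the 4 mm defect and 5, 11, 12, 5, 6, 6 and 6 arrays of the 8 mm defect. Later days were compared with day 1, since no unoperated bone was among the samples used, and these 6 comparisons share its 8 arrays. Array number is among the limits on the precision, and p-values measure the spread between these samples. The tissue plugs were mixed, and fewer cells of a type cannot be told apart from less RNA per cell.

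Ribosomal proteins are built with ribosomal RNA into the small subunit (Rps genes), which decodes the message, and the large subunit (Rpl genes), which joins amino acids. Rplp0, Rplp1 and Rplp2 form the stalk of the large subunit, which recruits the elongation factors. Their messages are among the most abundant in nearly every cell. Many start with a run of C and T bases, the 5′ terminal oligopyrimidine (TOP) tract, through which the mTOR pathway sets how strongly they are translated. Growing cells, such as those filling a wound, need new ribosomes.

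Promoter sequences from RefSeq (rat build GRCr8) were found for 60 of the 73 genes. In each, the longest run made of C and T alone that touched the window from 5 bases before to 5 bases after the annotated start was measured, on the gene's own strand. The run held 6 bases or more in 43 of 60 ribosomal protein genes (71.7%) and in 6619 of 33469 promoters in all (19.8%), and 10 bases or more in 32 of 60 (53.3%) against 4.64% of all. The median run was 10.0 bases in the ribosomal protein genes and 3.0 in all promoters. The 7 sequences below are those of the genes on which the results turn, from 20 bases before to 20 bases from the annotated start, with the run in capitals.
Rps23, chr2:23814497-23814536, plus strand: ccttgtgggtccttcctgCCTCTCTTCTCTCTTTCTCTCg
Rplp0, chr12:46718371-46718410, minus strand: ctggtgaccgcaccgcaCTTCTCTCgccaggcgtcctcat
Rpl19, chr10:83519044-83519083, plus strand: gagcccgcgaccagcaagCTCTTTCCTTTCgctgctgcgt
Rps13, chr1:180009641-180009680, minus strand: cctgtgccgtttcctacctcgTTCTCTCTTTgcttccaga
Rpl3, chr7:113507971-113508010, minus strand: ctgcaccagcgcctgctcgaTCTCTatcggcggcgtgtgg
Rpl18, chr1:105325250-105325289, plus strand: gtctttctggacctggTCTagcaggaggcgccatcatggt
Rpl36a, chrX:102059429-102059468, plus strand: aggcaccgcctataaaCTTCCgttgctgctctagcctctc
The runs differ in length among them: 21 bases in Rps23, 12 in Rpl19, 10 in Rps13, 8 in Rplp0, 5 in Rpl3 and in Rpl36a, and 3 in Rpl18. A short run here says only that these letters are not at the annotated start, which can lie away from the start used in the tissue.

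The deposited values are ratios to each probe's own typical level, so the level of one gene cannot be set against that of another. They also carry a limit that bears on this gene family more than on others. On every array, Rps23 and Rpl37a had the same log2 value within 0.0026, although they are separate genes read by separate probes, and other members joined the same profile on some arrays and fell below it on others. A value was counted as at the shared upper limit where a probe's distance from this profile was within 0.01 of the largest distance it reached, on at least 3 arrays. The edge was sharp: among the 4371 values of the 47 genes that met it on 10 arrays or more, 2914 lay within 0.01 of the limit, 11 between 0.01 and 0.02 below it and 15 between 0.02 and 0.03 below it. The limit is inferred from these shared values alone: the table holds no saturation flags, and its origin was not tested. Values at it are read here as lower bounds.

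The limit was met on at least 3 arrays by 55 of the 73 ribosomal protein genes, and 2952 of their 6789 values (43.5%) stood at it. Rps23, a protein of the decoding centre, and Rpl37a stood at it on all 93 arrays, Rps6, the ribosomal protein phosphorylated by S6 kinase, on 92, Rpl8 and Rpl41 on 91, and the stalk protein Rplp1 on 90. In all, 36 genes stood at it on over 46 arrays, 19 on 3 to 45 arrays, and for 18 no limit was seen. These 18 were Rpl3, Rpl4, Rpl5, Rpl10l, Rpl15, Rpl22, Rpl23a, Rpl29, Rpl34, Rpl35a, Rpl39l, Rplp0, Rps7, Rps10, Rps13, Rps15, Rps25 and Rps26. Over the whole array 352 of 41090 probes (0.857%) met the limit on 10 arrays or more, and 75 of them (21.3%) were probes of ribosomal protein genes. Per gene, 47 of 73 (64.4%) met it on 10 arrays or more, against 151 of 15930 (0.948%). The counts per gene are those of the probe used, and other probes of a gene could differ. Another probe met the limit on 14 arrays for Rps15a (78 by the probe used), 8 for Rpl10 (53) and 43 for Rpl29 (0).

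**Figure D1:**
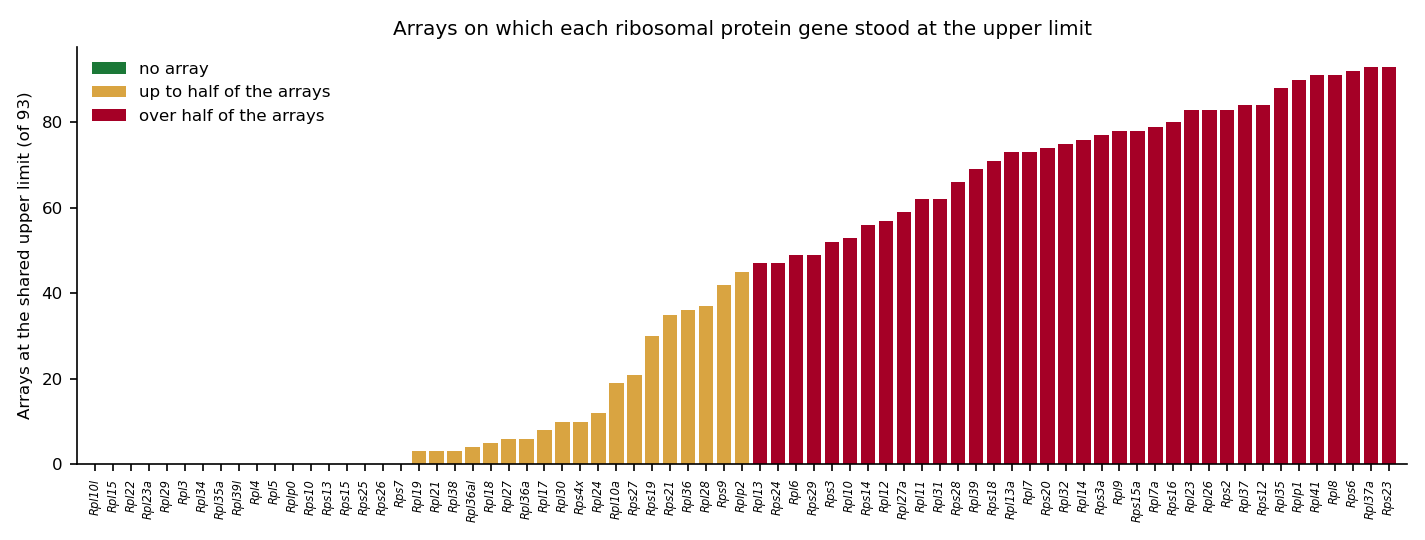
Bars give the number of arrays, of 93, on which each of the 73 ribosomal protein genes stood at the shared upper limit, ordered from none to all; colours mark genes with no array, up to 46 arrays and over 46 arrays at the limit. The 18 genes on the left never met it, and Rps23 and Rpl37a on the right stood at it on all 93 arrays.

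The profile of Rps23 defines the limit. At day 1 its log2 ratios were -0.29, 0.05 and 0.17 in the 4 mm defect, with a mean of -0.02 ± 0.24 (SD, n = 3), and -0.05 ± 0.38 (n = 5) in the 8 mm defect. The group means then ran from -0.80 ± 0.32 (SD, n = 12) in the 8 mm defect at day 5 to 1.15 ± 0.16 (n = 6) in the 8 mm defect at day 21. All arrays of days 10, 14 and 21 lay above 0 except 1 of the 4 mm defect at day 21, at -0.05, and the lowest array of all, in the 8 mm defect at day 3, lay at -3.30. Every gene shows this same course on the arrays where it stood at the limit. The share of the 73 genes at the limit moved with the day: the group means were 39.3% and 41.1% at day 1 (4 mm, then 8 mm), 55.2% and 57.5% at day 5, and 25.1% and 15.5% at day 21.

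**Figure D2:**
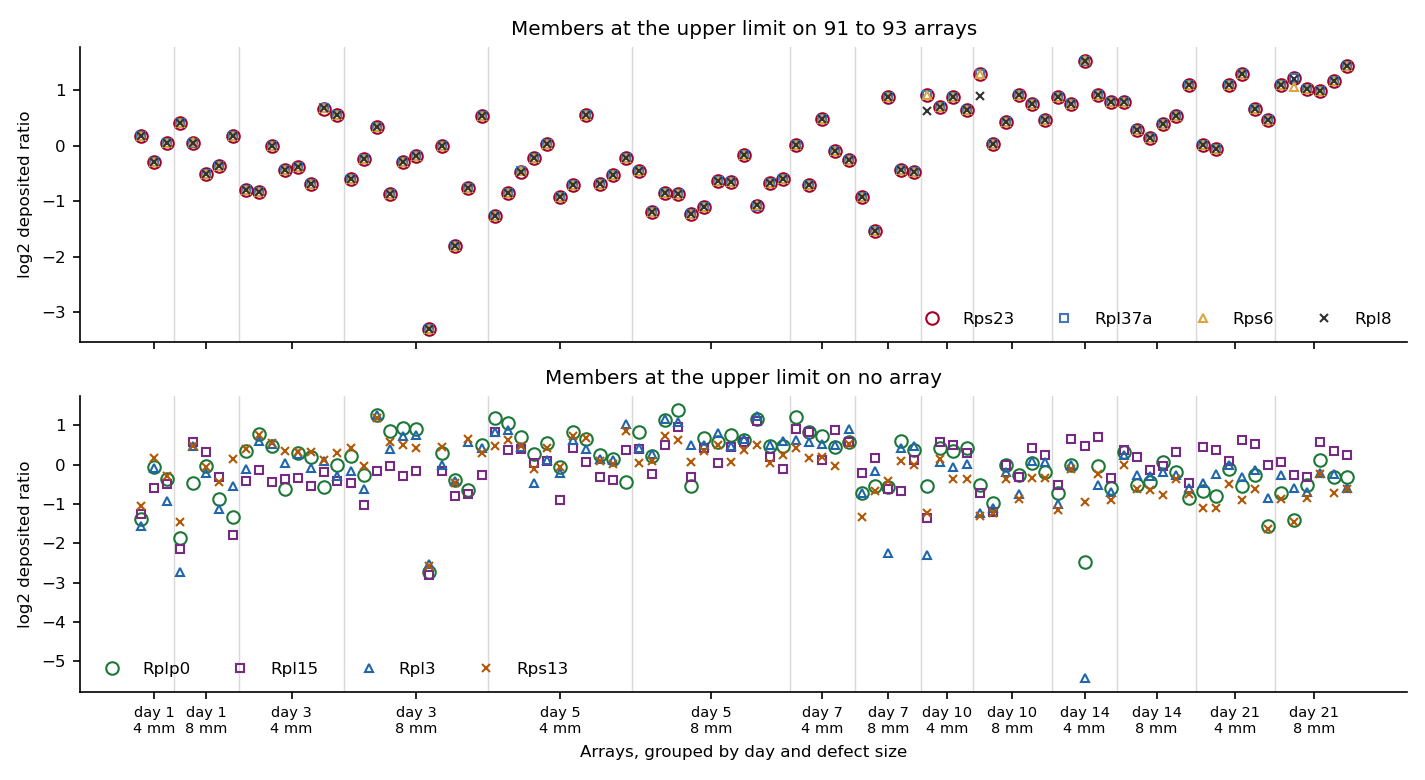
The log2 deposited ratio is plotted for each of the 93 arrays, grouped by day and defect size, for 4 genes at the limit on 91 to 93 arrays (top) and 4 genes with no array at the limit (bottom). The top symbols lie on each other on nearly every array, between -3.30 and 1.53, while the bottom symbols scatter.

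Against that limit, the question the design poses, how expression changes with time after injury, has different answers on the values as deposited and after each array was centred on its own median. limma, fitted over all 15930 genes with Benjamini-Hochberg adjustment at 0.05, was used for both. As deposited, 2 ribosomal protein genes rose and 0 fell at day 3 against day 1, beside 7.06% of all genes rising and 0.603% falling, with 10 of the 73 at an unadjusted p under 0.05. At day 5, 8 rose and 3 fell (all genes 21.5% and 2.03%), and at day 7, 5 rose and 0 fell (20.4% and 4.94%), with 13 at an unadjusted p under 0.05. The 5 at day 7 were Rpl15, Rpl22, Rpl29, Rplp0 and Rps7, and none of these passed at day 7 after centring. At day 10, 4 rose and 1 fell (12.5% and 6.08%). The day 14 comparison had 18 rising and 1 falling (15.8% and 7.85%), and the day 21 comparison 17 rising and 3 falling (16.0% and 12.1%). The median change of the 73 genes was -0.17, -0.35 and -0.14 at days 3, 5 and 7, where the median of all genes was 0.23, 0.39 and 0.33. It was 0.46, 0.48 and 0.26 at days 10, 14 and 21, where the median of all genes was 0.03, 0.07 and -0.05.

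Most of the late increases belonged to genes at the limit. Of the 18 genes that rose at day 14, 15 stood at the limit on arrays of both days, and of the 17 at day 21, 16 did. Rps23 rose by 0.79 ± 0.28 (SE, adjusted p = 0.0305, limma) at day 14, higher in 11 of 11 arrays than the day 1 mean, and by 0.90 ± 0.27 (adjusted p = 0.00886) at day 21, higher in 11 of 12. Rpl8, Rpl37a, Rps6 and Rplp1 gave nearly the same changes, 0.79 each at day 14 and 0.89 to 0.90 at day 21. These changes equal that of the shared upper value, and RNA above it would not show. The other 3 increases at day 14, those of Rpl15, Rps7 and Rps25, had no array at the limit. With the limit set equal on all arrays none of the 3 passed, at 0.06, 0.46 and 0.29 (adjusted p from 0.339 to 0.924), and after centring Rps7 and Rps25 did not pass (adjusted p = 0.0695 and 0.0658). The day 14 count of 19 changed genes fell to 5, 10 and 12 without rat 17 of the 4 mm defect and rats 13 and 14 of the 8 mm defect at day 1, and to 12 without rat 17 of the 4 mm defect at day 14.

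After centring, the counts turned round. At day 3, 2 genes rose and 2 fell (all genes 6.89% and 3.41%). At day 5, 5 rose and 50 fell (11.4% and 10.6%), and at day 7, 0 rose and 48 fell (11.6% and 16.7%), with 56 at an unadjusted p under 0.05. The counts were 3 rising and 7 falling at day 10 (10.4% and 17.5%), 1 and 14 at day 14 (11.6% and 21.0%), and 1 and 19 at day 21 (14.9% and 22.8%). Without rat 13 of the 4 mm defect at day 1 the day 7 count of 48 was 16, without rat 17 the day 3 count of 4 was 26, and without rat 11 of the 8 mm defect the day 21 count of 20 was 32. The median change of the 73 genes was -0.95 at day 5 and -0.77 at day 7, where that of all genes was -0.21 and -0.31, and -0.04 at day 21, where it was -0.34.

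The decreases of days 5 and 7 and those of days 14 and 21 differ in how many of the genes stood at the limit. The late counts, 14 and 19 of 73, lie near the shares of all genes that fell, 21.0% and 22.8%. At day 5, 47 of the 50 genes that fell stood at the limit on day 5 arrays, and at day 7, 43 of 48 did, so the direction of their RNA is not settled by these values. Of the remaining calls, Rps25 and Rpl34 fell at day 5 with no array at the limit, and Rpl17 stood at it on a day 1 array only. At day 7, Rpl18, Rpl24, Rpl36a, Rpl38 and Rps13 fell with no array at the limit. At day 14, 12 of the 14 genes that fell had no array at the limit on either day, and the other 2 were at it on day 1 arrays only. At day 21 these counts were 13 and 6 of 19. A gene at the limit only on day 1 was at least as high there as recorded, so its recorded fall, relative to the array median, is a lower bound. At days 10, 14 and 21, 30 of the 73 genes were free of the limit on both days of the comparison. Their recorded change lay below 0 under all 4 scalings tried (as deposited, centred, quantile, and the limit set equal on all arrays) in 10, 13 and 18 of them, and above 0 under all 4 in 6, 3 and 1. The median change of all genes at these days was -0.36, -0.39 and -0.34 centred, and -0.72, -0.71 and -0.95 with the limit set equal. As deposited and under quantile normalization it ran from -0.05 to 0.07. The same count of directions over all genes was not made, so these counts are not set apart from the general shift.

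**Figure D3:**
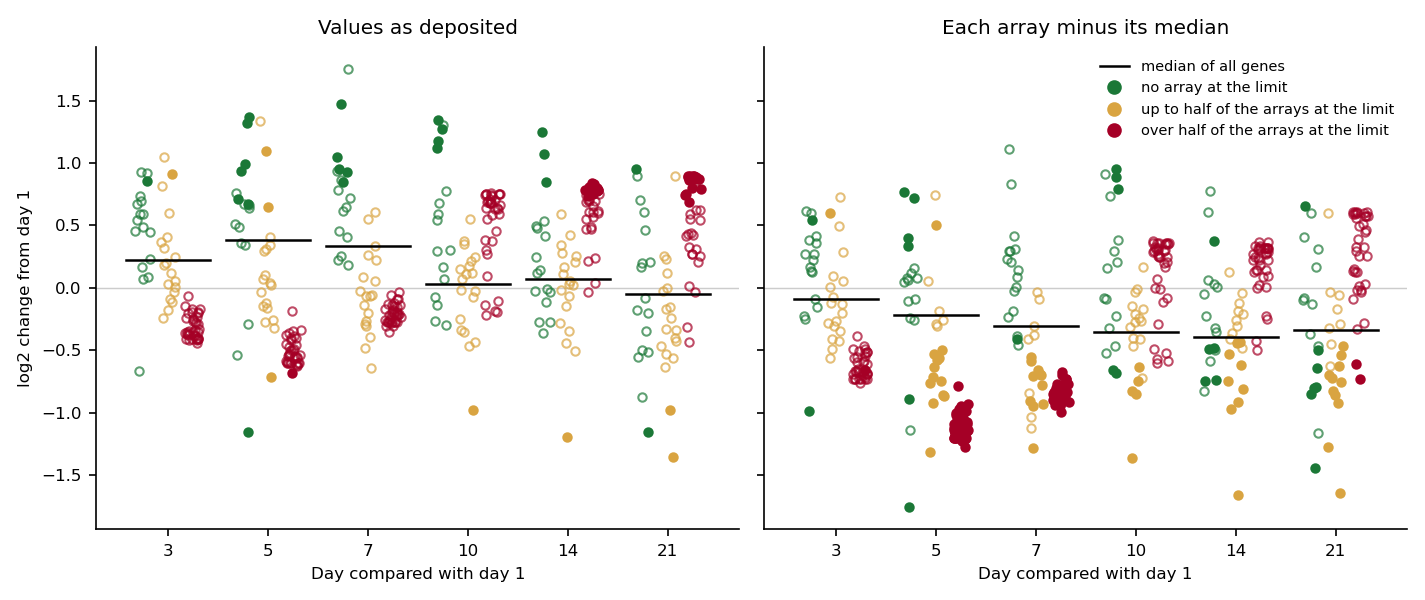
Each point is the log2 change from day 1 of 1 ribosomal protein gene at the day on the horizontal axis, as deposited (left) and after centring (right), with filled points for genes past the test and colours for how often the gene was at the limit; black lines mark the median of all genes, and Rpl39l, with floor values, is left out. The genes at the limit on over 46 arrays have a median below that of all genes at days 3 to 7 and above it at days 10 to 21, in both panels.

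Rplp0, the stalk's base, rose early and had no array at the limit. Its day 1 log2 ratios as deposited were -1.37, -0.36 and -0.07 in the 4 mm defect and -1.86, -1.34, -0.87, -0.47 and -0.04 in the 8 mm defect. At day 5 they ran from -0.45 to 1.19 with a median of 0.56 in the 4 mm defect, and from -0.54 to 1.40 with a median of 0.66 in the 8 mm defect. Every day 5 array lay above the day 1 mean, and the ranges of the days overlapped. The change at day 5 was 1.32 ± 0.28 (SE, adjusted p = 0.000123, limma) as deposited and 0.72 ± 0.17 (adjusted p = 0.000434) after centring. Rplp0 also rose at day 3 under both scalings, by 0.86 ± 0.28 (adjusted p = 0.0458) and by 0.54 ± 0.17 (adjusted p = 0.0253). The day 3 call as deposited was lost without any of 5 of the 8 day 1 arrays, with adjusted p from 0.0569 to 0.315: rats 13 and 18 of the 4 mm defect and rats 11, 14 and 16 of the 8 mm defect. The centred call was lost without rats 13 or 18 of the 4 mm defect or rats 12 or 16 of the 8 mm defect, with adjusted p from 0.0552 to 0.0789. As deposited, the day 3 call was also lost with only the compared groups in the fit (adjusted p = 0.219) and with a block on rat number (adjusted p = 0.0573). Without the 7 arrays with a median below -0.7 it was lost on both scales (adjusted p = 0.0838 and 0.0599). At day 7 Rplp0 rose by 1.05 ± 0.32 as deposited (adjusted p = 0.00913), and its centred change of 0.41 did not pass (adjusted p = 0.0956). By day 21 the changes from day 1 were 0.17 as deposited and -0.12 centred, neither past the test.

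Its stalk partners could not be followed in the same way. Rplp1 stood at the limit on 90 arrays and Rplp2 on 45. Rplp2 was at the limit on 4 of the 8 day 1 arrays and on none of days 10 to 21, and its centred change was -0.04, -0.12 and -0.17 at those days, with adjusted p from 0.568 to 0.928 (limma).

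Among the large-subunit genes, Rpl3, which lines the peptidyl transferase centre, rose at day 5 with no array at the limit. Its day 5 log2 ratios as deposited had a median of 0.39 in the 4 mm defect and 0.56 in the 8 mm defect, against medians of -0.93 and -0.54 at day 1. The change was 1.37 ± 0.35 (SE, adjusted p = 0.0016, limma) as deposited, higher in 23 of 23 arrays than the day 1 mean, and 0.77 ± 0.23 (adjusted p = 0.00972) centred, higher in 22 of 23. The centred call was lost without rat 18 of the 4 mm defect at day 1 (adjusted p = 0.0568). It was also lost without the 7 arrays with a median below -0.7 (0.66, adjusted p = 0.0789). Rpl19 rose by 0.91 ± 0.23 at day 3 (adjusted p = 0.00442) and 1.10 ± 0.22 at day 5 (adjusted p = 8.2e-05) as deposited, and by 0.60 ± 0.11 (adjusted p = 8.73e-06) and 0.50 ± 0.10 (adjusted p = 6.9e-05) centred. All 19 day 3 arrays of Rpl19 lay above its centred day 1 mean. The day 3 call as deposited was lost without rat 13 of the 4 mm defect at day 1 (adjusted p = 0.0627). It was also lost with the mean of the Rpl19 probes (0.55, adjusted p = 0.161) and with only the compared groups in the fit (adjusted p = 0.131). Rpl19 then fell below day 1, by 0.46 at day 21 after centring (adjusted p = 0.000627), while its change as deposited there was -0.17 and did not pass. The other Rpl19 probe, at the limit on 36 arrays, changed by 0.10 at day 21 after centring and by 0.39 as deposited.

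Rpl15 and Rpl29 rose at day 5 as well. Rpl15 rose by 0.94 ± 0.24 as deposited (SE, adjusted p = 0.00227, limma) and by 0.34 ± 0.13 centred (adjusted p = 0.0478), and Rpl29 by 0.99 ± 0.27 (adjusted p = 0.00349) and 0.40 ± 0.15 (adjusted p = 0.0461). Both centred calls at day 5 were lost without single day 1 arrays: that of Rpl15 without rats 17 or 18 (4 mm) or 11 or 16 (8 mm), with adjusted p from 0.0917 to 0.264, and that of Rpl29 without rats 13 or 18 (4 mm) or 11, 12 or 16 (8 mm), with adjusted p from 0.0564 to 0.135. Without rat 13 the Rpl29 call as deposited was also lost (adjusted p = 0.057), as it was with the mean of its 4 probes (0.54, adjusted p = 0.0878). Without the 7 arrays with a median below -0.7, the centred day 5 calls of Rpl15 and Rpl29 were lost (adjusted p = 0.102 and 0.175). The day 5 call of Rpl29 as deposited was lost there too (adjusted p = 0.0597). At day 21 Rpl15 was 0.95 ± 0.27 above day 1 as deposited (adjusted p = 0.00495) and 0.66 ± 0.14 centred (adjusted p = 0.000113), higher than the day 1 mean in 12 of 12 arrays on both scales. That change was 0.05 with the limit set equal on all arrays (adjusted p = 0.926) and 0.42 with the mean of its probes (adjusted p = 0.223). Rplp0, Rpl3, Rpl15 and Rpl29 were the 4 genes free of the limit that rose at day 5 under all 4 scalings, and Rpl19, at the limit on 3 day 5 arrays, did so too.

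Rpl18, a large-subunit protein, fell at days 10, 14 and 21 on both scales and was at the limit on none of the arrays of days 1, 7, 10, 14 and 21. After centring, its day 1 values were 0.38, 0.75 and 0.78 in the 4 mm defect and 0.49, 0.79, 0.86, 1.04 and 1.37 in the 8 mm defect. At day 21 they ran from -1.42 to -0.79 with a median of -1.06 in the 4 mm defect, and from -0.88 to -0.32 with a median of -0.73 in the 8 mm defect. No array of day 10, 14 or 21 overlapped those of day 1. The centred change was -1.36 ± 0.14 at day 10 (SE, adjusted p = 1.16e-12, limma), -1.66 ± 0.14 at day 14 (adjusted p = 6.64e-17) and -1.64 ± 0.14 at day 21 (adjusted p = 2.69e-17). As deposited it was -0.97 ± 0.28 (adjusted p = 0.00779), -1.19 ± 0.27 (adjusted p = 0.000486) and -1.35 ± 0.27 (adjusted p = 4.3e-05). Rpl18 passed at all 3 days under all 4 scalings. The day 10 call as deposited was lost with the mean of its probes (-0.73, adjusted p = 0.0572) and with only the compared groups in the fit (adjusted p = 0.127). A second probe of Rpl18, at the limit on 21 arrays, changed by -0.76 at day 21 as deposited.

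Rpl36a followed it. After centring its day 1 mean was 0.55 ± 0.22 (SD, n = 3) and 0.51 ± 0.24 (n = 5), and its day 21 mean was -0.78 ± 0.33 (n = 6) and -0.70 ± 0.19 (n = 6), for the 4 mm and 8 mm defects. No array of day 10, 14 or 21 overlapped those of day 1. At day 21 the change was -1.27 ± 0.14 centred (SE, adjusted p = 8.99e-12, limma) and -0.98 ± 0.26 as deposited (adjusted p = 0.00252), and it passed under all 4 scalings.

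**Figure D4:**
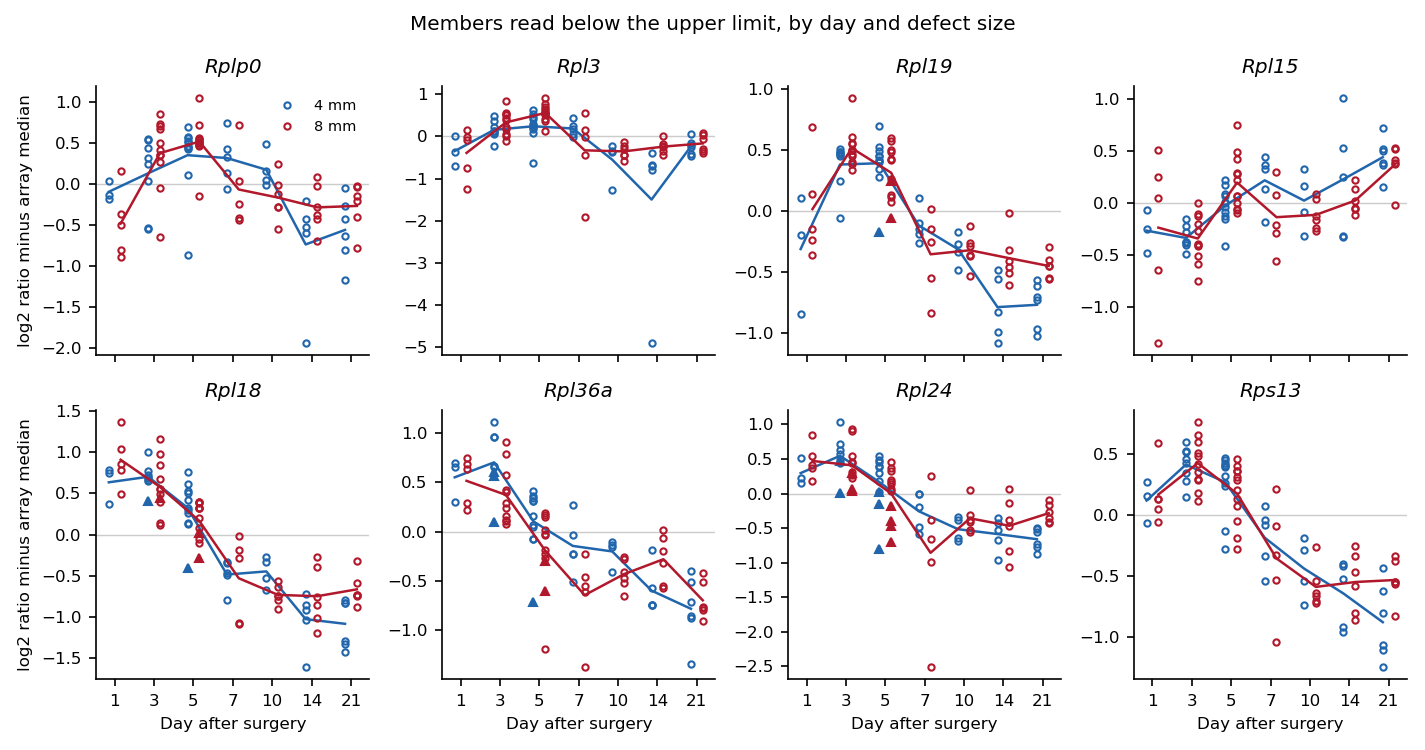
Log2 ratios minus the array median are plotted by day for 8 ribosomal protein genes, with 1 symbol per array (circles below the limit, triangles at it), lines through group means, and the 4 mm and 8 mm defects in blue and red. The group means of Rplp0, Rpl3 and Rpl19 are highest at day 3 or 5, those of Rpl15 at day 21, and Rpl18, Rpl36a, Rpl24 and Rps13 lie below their day 1 values at days 10 to 21.

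Further genes fell after centring, on some or all of days 10, 14 and 21, without passing as deposited. Rps13, a small-subunit protein, changed by -0.65 ± 0.13 at day 10 (SE, adjusted p = 2.65e-05, limma) and -0.85 ± 0.12 at day 21 (adjusted p = 1.8e-08), with no overlap between the days, and by -0.27 and -0.55 as deposited. Rpl24, which reaches across to the small subunit, changed by -0.82 ± 0.19 (adjusted p = 0.000309) and -0.86 ± 0.18 (adjusted p = 5.35e-05) centred, again with no overlap, and by -0.43 and -0.56 as deposited. Rpl38 changed by -0.74 at day 10 and -0.76 at day 21 after centring, and Rpl5, which carries 5S RNA into the ribosome, by -0.68 at day 10 (adjusted p = 0.00414), -0.48 at day 14 (adjusted p = 0.0392) and -0.37 at day 21, which did not pass (adjusted p = 0.0995). The other probes of Rpl5, at the limit on 11 and 17 arrays, did not fall with it. They changed by 0.31 and -0.08 at day 10 and by 0.02 and 0.16 at day 21 after centring. At day 21 the centred decreases also took in Rpl10a (-0.70), Rpl23a (-0.80), Rpl27 (-0.72), Rpl35a (-0.79), Rpl22 (-0.49) and Rps10 (-0.64), with 10 to 12 of 12 arrays below the day 1 mean in each. The day 21 decreases of Rps9 (-0.92), Rpl36 (-0.82), Rps24 (-0.73), Rps21 (-0.62), Rps3 (-0.60) and Rpl17 (-0.54) are lower bounds, with 1 to 5 of the 8 day 1 arrays at the limit and none at day 21.

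Among small-subunit genes, Rps25, Rps7 and Rps15 showed other courses. Rps25 fell at day 5, with changes of -1.16 ± 0.27 as deposited (SE, adjusted p = 0.0006, limma) and -1.75 ± 0.23 centred (adjusted p = 2.31e-09), below the day 1 mean in 23 of 23 arrays. It was above day 1 at day 10, by 1.18 ± 0.31 (adjusted p = 0.0039) and 0.79 ± 0.27 (adjusted p = 0.0197). Rps7 rose at day 10 by 1.27 ± 0.42 as deposited (adjusted p = 0.025) and 0.89 ± 0.35 centred (adjusted p = 0.0477), and Rps15 by 1.34 ± 0.39 (adjusted p = 0.00903) and 0.96 ± 0.33 (adjusted p = 0.02). With the limit set equal on all arrays none of the 3 passed at day 10: Rps25 changed by 0.43, Rps7 by 0.52 and Rps15 by 0.59 (adjusted p = 0.16, 0.465 and 0.353), and under quantile normalization the Rps25 call was also lost (adjusted p = 0.106). The day 10 calls were lost without single arrays as well. That of Rps25 after centring was lost without rat 17 of the 4 mm defect at day 1 (adjusted p = 0.0882). That of Rps15 was lost without rat 18 of the same group, at an adjusted p just over the 0.05 threshold as deposited and of 0.137 centred, and centred also without rat 12 of the 8 mm defect (adjusted p = 0.0508). That of Rps7 was lost as deposited without any of 4 arrays, with adjusted p from 0.051 to 0.108, and centred without any of 11, with adjusted p from 0.0507 to 0.0938. In the platform annotation the probes used for Rps25 and Rps7 carry accessions that today's RefSeq table does not list, and their second probes did not move with them. With the mean of its probes the day 5 change of Rps25 was -0.28 (adjusted p = 0.427). The other probe of Rps25 changed by 0.60 at day 5 and 0.13 at day 10 as deposited, and that of Rps7, at the limit on 18 arrays, by -0.07 at day 10.

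Genes named as relatives of a ribosomal protein gene behaved one by one. Rpl10l, the retrogene relative of Rpl10 best known from testis, fell at day 21, with changes of -1.15 ± 0.31 as deposited (SE, adjusted p = 0.00299, limma) and -1.44 ± 0.28 centred (adjusted p = 1.76e-05), below the day 1 mean in 11 and 12 of 12 arrays. Under quantile normalization the change was -0.70 and did not pass (adjusted p = 0.0548). The only probe of Rpl10l carries an Ensembl accession that was not matched to a transcript in today's RefSeq table. Rps4x, the X-linked form of Rps4, rose at day 5 by 0.65 ± 0.23 as deposited (adjusted p = 0.0299), with 7 day 5 arrays at the limit and none of day 1, and its centred change was 0.05. The probe named Rpl39l was listed at the floor of the deposited values on 12 arrays, that of Rps26 on 2 and that of Rps19 on 1. Rpl39l fell at day 14 after centring, with a change of -2.86 ± 1.02 (adjusted p = 0.0241, limma). Of its 11 day 14 arrays, 5 were at the floor, and its log2 ratios there ran from -6.64 to 1.75. The call was lost without rat 13 or 18 of the 4 mm defect at day 1 or rat 16 at day 14, with adjusted p from 0.0547 to 0.17. RefSeq's table names the transcripts of the probes called Rpl39l, Rpl36al and Rpl37 as Rpl39l1, Rpl36al1 and Rpl37l1. Signal from such near copies cannot be told apart with certainty by hybridization.

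Defect size separated very few of these genes, and few genes of the whole array. On no day did over 2.44% of all genes pass as deposited, or over 5.62% after centring. The low counts therefore do not set these genes apart. As read by the probes used, 36 of the 73 stood at the shared upper limit on most arrays, where a size difference in RNA above it would not show. As deposited, limma called 0 of 73 between the 8 mm and 4 mm defects on 6 of the 7 days. These were days 1, 3, 5, 10, 14 and 21 (all genes 0.0%, 0.0%, 0.0%, 0.352%, 1.32% and 2.44%), and 0, 4, 0, 4, 2 and 0 of the 73 had an unadjusted p under 0.05. At day 7, 1 passed (all genes 0.559%). After centring, 0 passed at days 1, 3, 5, 10 and 21 (all genes 0.0126%, 0.0%, 0.00628%, 0.785% and 5.62%), with 0, 3, 7, 4 and 9 at an unadjusted p under 0.05, and 1 passed at day 7 (1.43%) and 1 at day 14 (3.35%). At day 10 after centring the smallest p-values were those of Rpl13a (1.52, adjusted p = 0.0555, limma) and Rpl6 (-1.25, adjusted p = 0.0648). Rpl6 did not overlap between the sizes, and Rpl13a stood at the limit on 4 arrays of the 8 mm defect and 2 of the 4 mm defect. The interaction of size and day called 0 of 73 on either scale (all genes 0.59% and 2.04%), with 1 and 8 at an unadjusted p under 0.05.

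The gene that passed at day 7 was Rpl36al, a relative of Rpl36a. Its log2 ratios as deposited were -0.46, 0.50, 0.63, 0.79 and 0.81 in the 4 mm defect and -5.90, -4.10, -2.07, -0.69 and -0.33 in the 8 mm defect. The groups overlapped, and 3 of the 5 arrays of the 8 mm defect made the difference. It was -3.07 ± 0.65 (SE, adjusted p = 0.0113, limma) and -2.52 ± 0.56 centred (adjusted p = 0.012). Without rat 13 of the 8 mm defect the call was lost, at -2.25 with an adjusted p of 0.238 as deposited and 0.135 centred. With the compared groups alone in the fit the adjusted p was 0.124. The second Rpl36al probe differed by -0.90 as deposited and -0.35 centred. The array median itself was 0.44 ± 0.09 (SD, n = 5) in the 4 mm defect and -0.11 ± 0.26 (n = 5) in the 8 mm defect at day 7. At day 14 Rpl3 was higher in the 8 mm defect by 1.25 ± 0.34 after centring (adjusted p = 0.0195), and the call was lost without 1 array of the 4 mm defect, rat 17 (0.40, adjusted p = 0.496), whose log2 ratio as deposited was -5.43.

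Over all days, the F test called 42 of 73 genes in the 4 mm defect and 49 in the 8 mm defect as deposited, beside 36.0% and 43.3% of all genes, and 63 and 67 after centring, beside 44.1% and 50.7%. For genes at the limit this test reads the course of the limit. Of the 18 genes with no array at it, the F test called 12 and 9 as deposited and 16 and 14 centred.

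Probes for one gene often disagreed. In 9 of the 30 genes with several probes the centred day 5 changes of the probes differed in sign, and in 7 the lowest correlation of 2 probes over the 93 centred arrays was below 0, while in 8 it was over 0.8. The other Rpl19 probe, at the limit on 36 arrays, changed by -0.52 at day 5 after centring where the probe used changed by 0.50. The other Rpl15 probe, at the limit on 33 arrays, changed by -0.22 where the probe used changed by 0.34. For Rpl29, 2 probes with no array at the limit changed by 0.40 and 0.43, and 2 probes at it on 31 and 43 arrays by -0.36 and -0.72. Rplp0, Rpl3, Rpl36a, Rpl24 and Rps13 were each read by 1 probe only.

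**Figure D5:**
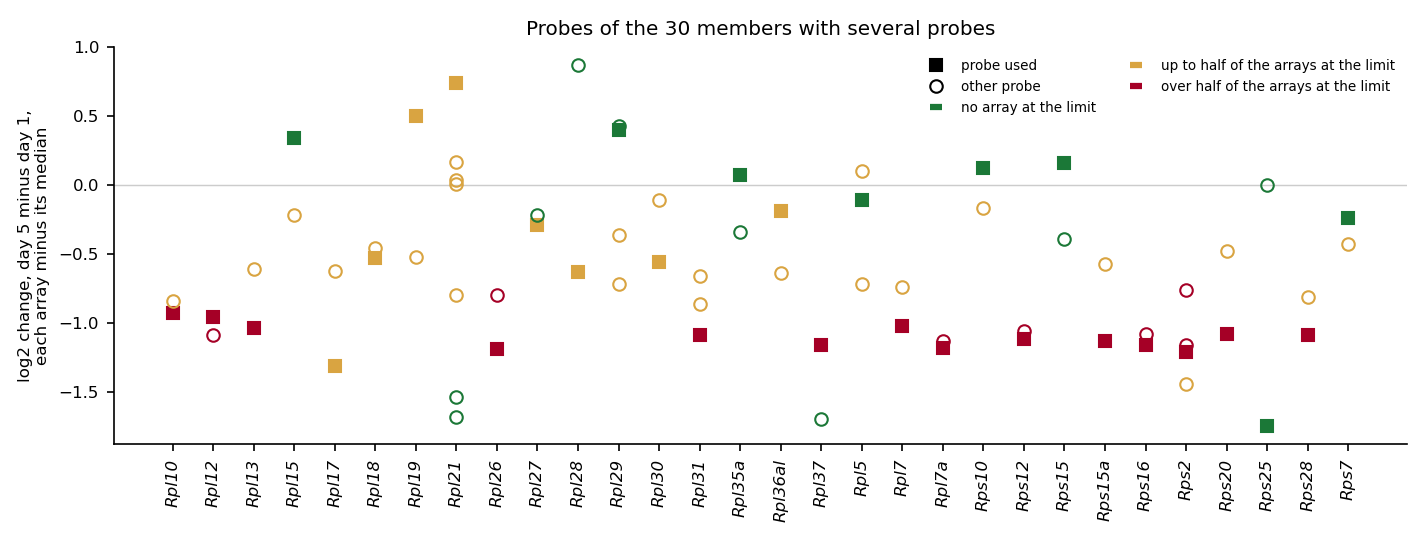
The centred log2 change at day 5 from day 1 is plotted for every probe of the 30 genes with several probes; squares are the probes used, circles the others, and colours give how many arrays stood at the limit. The probes of Rpl15, Rpl19, Rpl28 and Rpl29 lie on both sides of 0.

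Other genes of protein synthesis were read with the same fits. Of all genes, 11.4% rose and 10.6% fell at day 5 centred, 11.6% and 21.0% at day 14, and 14.9% and 22.8% at day 21. As deposited, these shares were 21.5% and 2.03% at day 5, and 16.0% and 12.1% at day 21. Of 49 ribosome biogenesis genes, which make ribosomal RNA and assemble subunits, none met the limit on 10 arrays or more. After centring 24 fell by day 5, 36 by day 14 and 41 by day 21 and 0 rose, and the median changes were -0.53, -1.12 and -1.22. As deposited, 2 rose and 2 fell at day 5 and 27 fell at day 21. Myc, the transcription factor that drives the pathway, fell by 2.39 ± 0.15 (adjusted p = 8.19e-24, limma) at day 21 after centring, and changed by -2.10 ± 0.30 as deposited (adjusted p = 4.38e-08). Of 34 initiation factors, 3 rose and 17 fell at day 21 centred, and 3 rose and 8 fell as deposited; Eif4a1, the helicase, fell by 2.15 ± 0.16 centred (adjusted p = 3.08e-20). Of 8 elongation genes, 3 rose and 2 fell at day 21 centred and 3 rose and 0 fell as deposited, and 4 of the 8 met the limit on 10 arrays or more. Of 14 genes of mTOR signalling to translation, 1 rose and 6 fell at day 21 centred and 1 rose and 4 fell as deposited. Of 17 genes that act on the nascent chain, 1 rose and 7 fell centred and 1 rose and 1 fell as deposited. Of the 3 ribosomal proteins outside the symbol rule, Rpsa and Gnb2l1 (RACK1) rose at day 5, by 0.48 ± 0.15 (adjusted p = 0.015) and 0.46 ± 0.11 (adjusted p = 0.000704) centred, and fell at day 21, by 0.82 ± 0.17 (adjusted p = 5.42e-05) and 0.61 ± 0.12 (adjusted p = 2.85e-05). As deposited both rose at day 5, by 1.08 and 1.06, and neither passed at day 21. Fau, the third, stood at the limit on 71 arrays.

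Markers of the cells in the plug moved over the same days, and their part in the ribosomal protein results was not tested. Of all genes, 11.4% rose and 10.6% fell at day 5 after centring, and 14.9% rose and 22.8% fell at day 21. After centring, 9 of 11 neutrophil markers fell at day 5 and 4 at day 21, with group mean levels between -1.78 and 2.43, and 6 of 11 macrophage markers rose at day 5 and 3 rose and 2 fell at day 21 (-1.01 to 0.12). Of 18 cell cycle genes, 9 rose at day 5 with 0 falling, and 11 fell at day 21 with 0 rising (-1.61 to 0.73). Of 11 bone genes, 3 rose and 1 fell at day 5 and 5 rose and 1 fell at day 21 (-1.81 to 0.83), and of 13 fibroblast and wound matrix genes 8 rose at both days, with 2 and 1 falling (-1.53 to 0.52). Of 14 skeletal muscle genes 5 fell at day 5 and all 14 at day 21 (-2.34 to 4.75), and of 9 epidermis genes 5 fell on each of these days (-3.16 to 2.61). Of 7 erythroid genes 6 fell at day 5 and 4 rose at day 21 (-2.09 to 1.79). Of 10 lymphocyte genes 1 rose and 5 fell at day 5 and 2 rose at day 21 (-1.30 to 1.04). Of 12 brain genes 1 rose at day 5, and 2 rose and 2 fell at day 21 (-1.41 to 1.37). The upper limit was met on 10 arrays or more by 4 fibroblast and wound matrix, 3 erythroid, 2 bone and 2 macrophage genes. The direction of RNA at the limit is not settled by these values. As deposited at day 5, 9 fibroblast and wound matrix, 5 bone and 8 macrophage genes rose with 0 falling. On that scale 9 neutrophil and 4 erythroid genes fell at day 5 with 0 rising. The array median ran from -2.69 to 0.69 over the 93 arrays, and 7 arrays lay below -0.7.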

How the data were processed

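Gene expression was measured on 93 one-colour Agilent arrays, 1 per harvested defect, and the authors' deposited table of values was used. Its values are linear ratios, per the deposited values: 87.8% of probes have a median of 1 within 0.001 and the lowest value is 0.01, a floor. How arrays were scaled to each other is not given in the sources used here, and scanner files were not used here. The log2 of each deposited ratio was taken. Of 41090 probes, 20932 have 1 gene symbol and 20158 none. Each gene was read by the probe with the fewest floor values, ties going to the larger interquartile range. Centring subtracted each array's median over the 12117 probes above the floor on all arrays. limma 3.58.1 (R 4.3.3) fitted the means of the 14 groups over 15930 genes, with both defect sizes weighted equally in comparisons of days. The script was tested on simulated data.

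The members and lists were chosen with earlier results of these data known. The upper limit was found, and the alternatives that concern it were added, after the values were seen. Genes were named from the 5 largest increases and decreases past the test in each comparison, or the 3 smallest p-values where none passed. Named as well were the stalk proteins, the relatives of ribosomal protein genes, and genes with floor values. In other lists the 2 largest changes in each direction were drawn on. Not every gene that met these rules is described for its comparison. Genes named for the limit, and the further genes listed as called at single days, were chosen after their values were seen. Whether equal rat numbers mark 1 animal across groups is not stated; of 34 pairs of arrays of 1 day with equal numbers in both sizes, 13 had a correlation of deviations from their group means over 0.1 (median 0.016), so arrays were not paired. No table of protein sequences was used. A replicate block, other probe rules, other scalings and the removal of single arrays were tried as alternatives.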

Additional observations from a re-analysis of the deposited data

Results flagged for a closer look

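For the 11 ribosomal protein genes named for passing a test and free of the limit and the floor, the arrays of each group of 4 to 10 were searched for one that lies far from the rest. Of 110 groups of arrays, 13 held one, where chance gives about 5% of independent groups. The 11 genes share their arrays, so the 110 are not independent and the 13 are not read as an excess. In the 4 mm defect at day 10, rat 10 lay low in 5 genes: Rpl15 at -1.35, Rpl3 at -2.30, Rpl5 at -1.94, Rplp0 at -0.55 and Rps7 at -0.61 (log2, as deposited), against medians of the other arrays of 0.51, 0.01, -0.09, 0.42 and 0.98. That array's median over all probes was -1.03. In the 4 mm defect at day 14, rat 17 lay low for Rpl3 at -5.43 and Rplp0 at -2.47, against medians of the others of -0.61 and -0.31. At day 21, rat 15 of the 4 mm defect lay low for Rpl22 at -2.15 and Rpl34 at -2.23, and rat 11 of the 8 mm defect for Rps25 at 0.11. At day 10, rat 11 of the 8 mm defect lay low for Rps25 at 0.18. At day 7, in the 4 mm defect, rat 15 lay low for Rps15 at -3.88 and rat 10 high for Rpl5 at 1.02. No ribosomal protein gene passed the test of the interaction between size and day on the values as deposited.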

How the results depend on the processing

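Counts of changed ribosomal protein genes as deposited were 2, 11, 5, 5, 19 and 20 of 73 at days 3, 5, 7, 10, 14 and 21 against day 1, and 1, 7, 5, 4, 3 and 2 of the 18 genes with no array at the limit; counts that moved by over 1.5 times follow, those of the 18 after those of the 73. Centring gave 4, 55, 48 and 10 at days 3 to 10 and 1 by size at day 14, and 2, 1, 6 and 7 of the 18 at days 3, 7, 14 and 21. Centring without the 7 arrays of low level gave 1, 51, 15, 8 and 33 at days 3, 5, 7, 10 and 21, 2 and 1 by size at days 7 and 14, and 0, 3, 2 and 7 of the 18 at days 3, 5, 7 and 21. Leaving those arrays out without centring gave 1, 7, 33, 30 and 35 at days 3, 5, 10, 14 and 21, 13 by size at day 7, 1 for the interaction, and 0, 2 and 6 of the 18 at days 3, 7 and 21. Quantile normalization gave 7, 47, 10, 4 and 6 at days 3, 5, 7, 14 and 21, 0 by size at day 7, and 6, 2 and 1 of the 18 at days 3, 10 and 14. The limit set equal on all arrays gave 14, 27, 12, 18 and 40 at days 3, 5, 7, 10 and 21, 0 and 4 by size at days 7 and 21, and 9, 15, 10, 2 and 8 of the 18 at days 3, 5, 7, 10 and 21. Raising values below 0.25 gave 6, 29, 11 and 24 at days 3 to 10, 0 by size at day 7, and 4, 11 and 9 of the 18 at days 3 to 7. The mean of all probes gave 0, 2, 12 and 13 at days 3, 10, 14 and 21, and 0, 4, 3, 2, 0 and 1 of the 18. Testing only genes above the floor gave 4, 26 and 16 at days 3, 5 and 10, and 3 and 11 of the 18 at days 3 and 5. Fitting only the compared groups gave 0, 37 and 2 at days 3, 5 and 10, 0 by size at day 7, and 0 and 2 of the 18 at days 3 and 10. The probe with the largest interquartile range gave 1 at day 3 and 0 of the 18. The probe with the fewest arrays at the limit gave 8 at day 7, and with centring 4, 54, 48 and 12 at days 3 to 10, 1 by size at day 14, and 2, 1, 6 and 7 of the 18 at days 3, 7, 14 and 21. The replicate block on rat number gave 1, 0 and 3 at days 3, 7 and 10, and 0, 0 and 2 of the 18.

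Leaving out 1 array at a time gave 0 to 6, 7 to 15, 1 to 10, 3 to 13, 5 to 22 and 15 to 25 genes at days 3 to 21, 0 to 2 and 0 to 1 by size at days 7 and 10, 0 to 1 for the interaction, and 0 to 5, 5 to 11, 1 to 9, 2 to 6, 1 to 4 and 2 to 3 of the 18. Of changes of single named genes, 1231 kept direction and side of the threshold, and 169 lost the call, over the alternatives run. Of these, the day 21 changes of Rps23, Rpl37a, Rpl8 and Rpl35 went to 0.00 with the limit set equal, as that setting holds the limit still, and the others kept their sign. The cause of each move was not tested, except that testing fewer genes changes the adjustment. The limit bounds recorded values from above, and the floor bounds them from below.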
